A study of Mus musculus with 3 samples.

Results

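The genes described here are 9 members of the Notch pathway, chosen by symbol from the 32285 genes counted: the ligands Dll4 and Jag1, the receptors Notch1 and Notch3, and the genes Hes1, Dtx1, Nrarp, Ptcra and Il2ra, which are read out as targets of the pathway in thymocytes. They were followed by their UMI counts (unique molecular identifiers, which count captured RNA molecules) through 8392 single cells of 1 droplet lane on culture day 13. Both pools were labelled wild type and untreated. The thymi came from C57BL/6J mice, and the strain of the MEFs is not given in the sources used here. The ORFTOC pool (4248 cells) held 2 reaggregates in which TECs grown as organoids had been put together with embryonic thymus cells depleted of EpCAM-positive cells and with wild-type mouse embryonic fibroblasts (MEFs). The FTOC pool (4144 cells) held 2 intact embryonic thymic lobe cultures kept in the same medium. The lobes and the depleted cells were taken at the same embryonic age, and the TECs of the organoids came from older embryos. The 2 cultures of a pool were mixed before 1 hashtag antibody was added, so each pool was 1 sample, no test between pools could be made and no p-value is given. Pool, embryonic age of the TECs, MEFs, reaggregation and organoid passage cannot be told apart in this design.

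Notch receptors are membrane proteins that are cut when a Delta or Jagged ligand on a neighbouring cell binds them. The part set free, the intracellular domain, enters the nucleus and joins the DNA-binding protein RBPJ to switch on target genes. In the thymus Dll4 on TECs is the ligand that commits incoming progenitors to the T lineage through Notch1, and the signal is used again around the step at which a rearranged T cell receptor (TCR) β chain pairs with the pre-TCR α chain made by Ptcra.

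Levels are given as counts per 1000000 UMIs of a population (CPM), with 95% exact Poisson intervals. Shares of cells carry 95% Clopper-Pearson intervals, and ratios of ORFTOC over FTOC are on the log2 scale with exact conditional intervals. These intervals hold counting error alone, since the spread between cultures was not measured. A ratio counted as past the limit when it exceeded 1.5-fold, and it was taken only for genes with at least 50 UMIs over both pools and populations of at least 30 cells in each. Clusters were named from marker genes, so a name such as cTEC or DP means cells like that type, and 9 of the 28 clusters stayed unnamed and are called by number and leading genes. The clustering was made without the 9 genes and without the 44 other pathway genes listed below. Epithelial cells numbered 2189 (median 12743 UMIs per cell), thymocytes 3681 (2173 UMIs) and mesenchymal cells 267 (18735 UMIs). The summed level of 4 epithelial markers was 7310 CPM in epithelial cells, 47.2 in thymocytes and 160 in mesenchymal cells. Among 67563 barcodes with too few UMIs to be cells, the RNA free in the lane held 65.1 CPM of Notch1, 47.1 of Hes1, 39.5 of Il2ra, 17.8 of Dtx1, 13.8 of Notch3, 10.1 of Jag1, 9.79 of Nrarp, 5.64 of Ptcra and 2.66 of Dll4. A population would show these levels if all of its UMIs were free RNA. Shares of free RNA were estimated from the UMIs of markers of other compartments, which also count doublets. They were at most 2.94% of the UMIs of cTECs, 4.66% in airway-like cells and 2.86% over all thymocytes. Among thymocytes they were at most 6.93% in DP and 5.33% in selected cells. Cluster e1 had at most 8.45%, all epithelial cells 7.91% and mesenchymal cells 7.94%. A level below that of free RNA is therefore low but not thereby background. Aire mTECs stood apart at 39.5%, an upper limit that would also count any such marker UMIs made by the cells themselves. Subtracting the free RNA profile at this share gave 0 CPM for Notch3 and Dtx1, 83.8 CPM for Hes1, 110 CPM for Nrarp and 103 CPM for Il2ra. Since the true share was not measured, these subtracted levels are uncertain.

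Of the 9 genes 8 had a promoter window in the RefSeq table of GRCm38.p6, and the 250 bases before the start of each were searched for TGGGAA and its reverse complement TTCCCA, the core of RBPJ binding sites. Hes1 had no window in that table and was not searched. Of the 8 windows searched, only the Ptcra window held a match. It is shown beside the window of Nrarp, which held none although Nrarp is a feedback target of the pathway, and matches stand in capitals. The Ptcra window lies at chr17:46763713-46763962 on the minus strand and the Nrarp window at chr2:25180508-25180757 on the plus strand.
Ptcra: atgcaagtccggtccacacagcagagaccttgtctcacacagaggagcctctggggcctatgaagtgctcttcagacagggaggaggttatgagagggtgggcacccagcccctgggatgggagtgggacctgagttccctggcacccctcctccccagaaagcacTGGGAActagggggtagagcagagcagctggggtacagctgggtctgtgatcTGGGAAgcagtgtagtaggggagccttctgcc
Nrarp: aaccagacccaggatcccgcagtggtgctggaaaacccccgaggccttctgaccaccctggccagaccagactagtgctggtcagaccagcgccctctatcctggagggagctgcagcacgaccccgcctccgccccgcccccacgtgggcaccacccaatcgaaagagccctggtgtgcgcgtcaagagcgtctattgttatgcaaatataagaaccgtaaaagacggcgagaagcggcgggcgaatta
The first bases of the Ptcra matches lay 84 and 32 bases before the start, and both read TGGGAA in the direction of the gene. Of 32851 windows of the same length, 21.6% held at least 1 match on either strand and 2.8% held 2 or more. A match in these letters is not a measured site.

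The levels separated the members into an epithelial and a thymocyte side. Dll4, Jag1, Hes1 and Nrarp were highest in epithelial or innate lymphoid populations and were low in most thymocytes, whereas Ptcra was highest in cycling clusters i7 and i10 and in DP thymocytes. Notch1 was read on both sides, Notch3 in mesenchymal, airway-like and DP cells, Dtx1 in T cells and ILC2-type cells, and Il2ra in lymphoid cells and some TECs. Over 43 profiles of a cluster in 1 pool, which share 1 lane and its free RNA, the highest Pearson correlation between 2 members was 0.79, for Jag1 with Hes1. Notch1 with Ptcra reached 0.58, Dtx1 with Ptcra 0.57, and Hes1 with Dtx1 had the lowest value, -0.58.

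**Figure D1:**
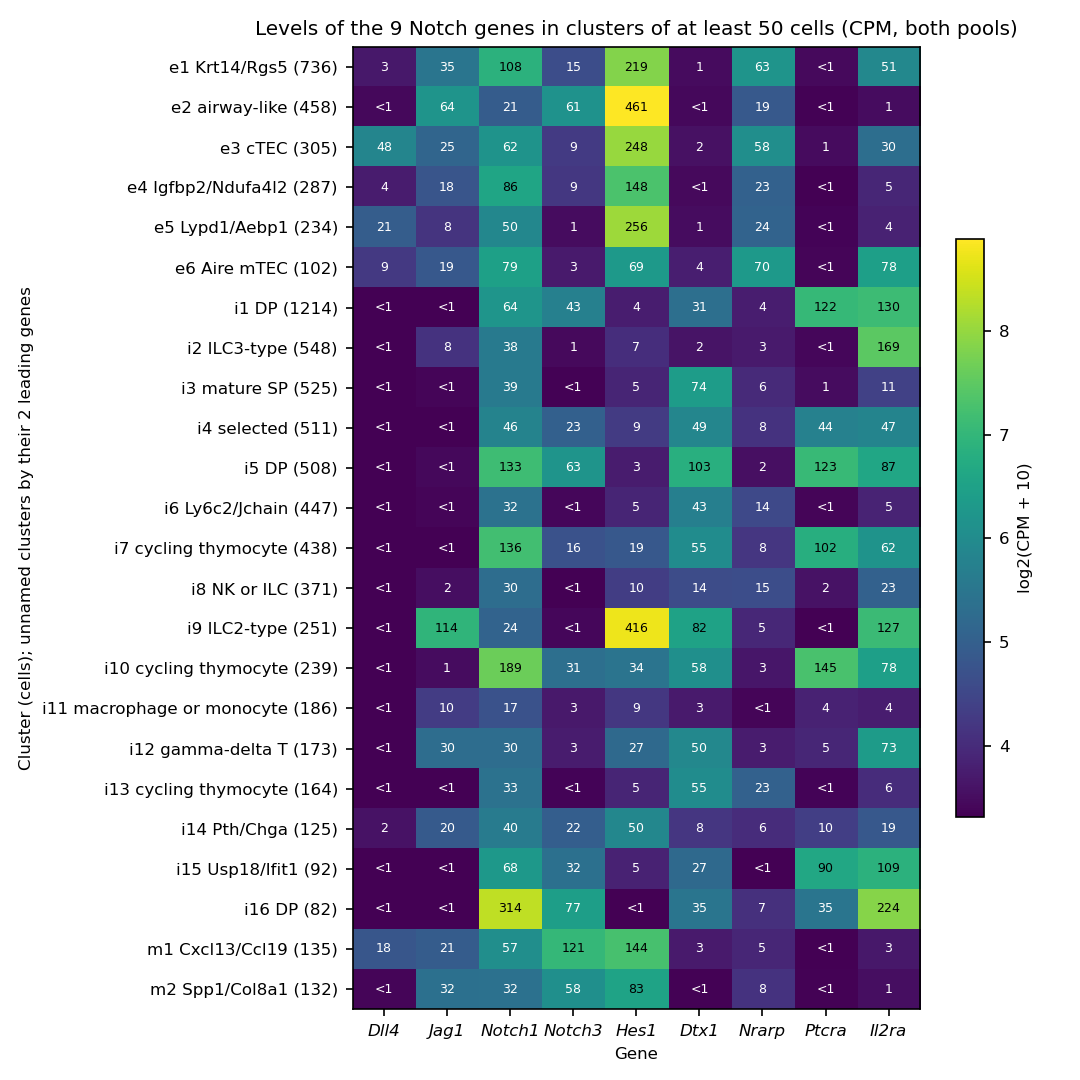
Heat map of the level of each of the 9 genes (columns) in the 24 clusters of at least 50 cells (rows), over both pools on a scale of log2(CPM + 10), with the level printed in each field. Values are compared down a column and not along a row. Ptcra and Notch1 stand high in DP cells and in cycling clusters i7 and i10, Dll4 in cTECs, and Jag1 and Hes1 in airway-like and ILC2-type cells.

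Dll4 (chr2:119325784-119335666, GRCm38.p6) was highest in cTECs. Its level was 48.0 CPM in cTECs (interval 42.1 to 54.5), with a UMI in 109 of 305 cells (35.7%). In ORFTOC cTECs it was 45.2 CPM (39.1 to 52.1, 267 cells) and in FTOC cTECs 66.8 CPM (48.1 to 90.3, 38 cells), a log2 ratio of -0.56 (-1.05 to -0.04) that stayed within 1.5-fold. The next levels were 21.1 CPM (16.2 to 27.1) in epithelial cluster e5, led by Lypd1 and Aebp1, and 17.9 CPM (12.7 to 24.4) in mesenchymal cluster m1, led by Cxcl13 and Ccl19. The intervals of these 2 overlapped, and both lay below that of cTECs. Aire mTECs followed with 8.89 CPM (5.35 to 13.9), and airway-like cells had 0.917 CPM (0.298 to 2.14), below the level of free RNA.

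No Dll4 UMI was found in 3681 thymocytes, which allows a share of up to 0.0815% of cells with a UMI and a level of up to 0.169 CPM. The whole immune compartment held 2 Dll4 UMIs, both in 1 cell of cluster i14, an unnamed cluster led by Pth and Chga. A productive TCR β chain was found in 37.6% of its 125 cells.

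In the clustering used here the 2 pools drew their Dll4 from the clusters in different shares. Of 255 Dll4 UMIs in ORFTOC, 76.1% came from cTECs (70.4 to 81.2) and 14.1% from cluster m1 (10.1 to 19.0). Of 151 Dll4 UMIs in FTOC, 27.8% came from cTECs (20.8 to 35.7) and 37.1% from cluster e5 (29.4 to 45.3). Over all epithelial cells the level was nevertheless alike, 12.7 CPM in ORFTOC (11.1 to 14.5) and 11.5 CPM in FTOC (9.74 to 13.6), a log2 ratio of 0.14 (-0.17 to 0.45). Cluster e5 was not found again under some alternatives. Its best overlap, as shared cells over cells in either cluster, was 0.25 with hashtags assigned by a 4-fold ratio. It was 0.22 with within-pool doublets kept and 0.38 with the members kept in the clustering. The shares by cluster were not recomputed under the alternatives.

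**Figure D2:**
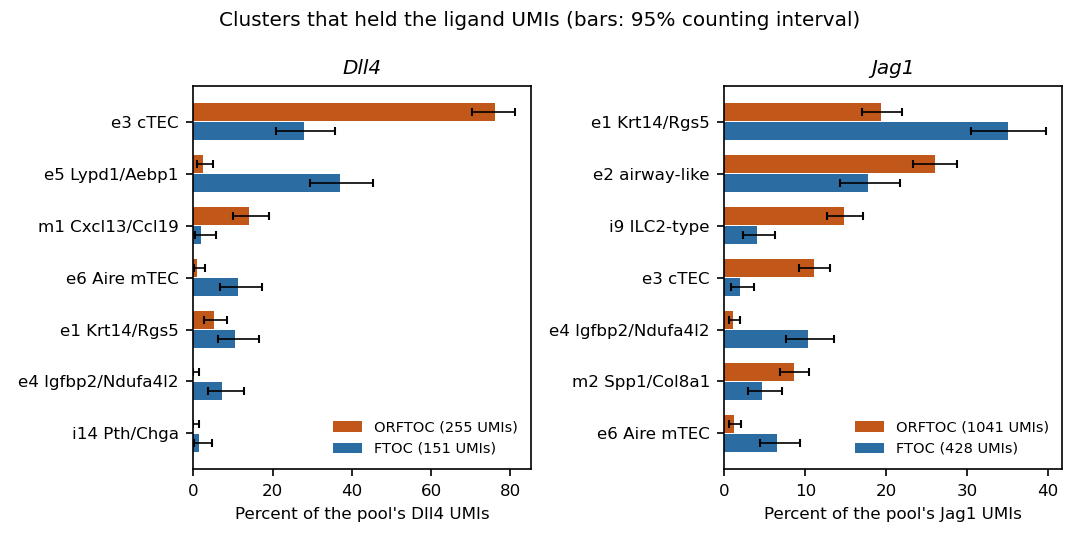
Share of the UMIs of the ligands Dll4 and Jag1 in each pool (percent of the gene's UMIs in the pool) by cluster, with whiskers for the 95% counting interval. The cTECs gave 76.1% of Dll4 UMIs in ORFTOC and 27.8% in FTOC, where cluster e5 gave 37.1%.

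Within cluster e5 Dll4 went with cortical genes. Of its 25 cells with a Dll4 UMI, 23 also held Foxn1, the transcription factor that makes thymic epithelium, against 74 of 209 cells without Dll4 (92 and 35.4%). Psmb11, the cortical proteasome subunit, was found in 60.0 and 7.66% of the same cells. Median UMIs were 14905 in cells with Dll4 and 11906 without, and the part of depth in this was not tested. In cTECs themselves Foxn1 was found in 90.8% of cells with Dll4 and in 73.5% without at full depth. With every cell thinned to 1000 UMIs the shares were 42.9% (17.7 to 71.1, 14 cells) and 12.4% (8.82 to 16.7, 291 cells). The pool difference in cluster e5 was the widest of Dll4: 6 UMIs in 67 ORFTOC cells (7.15 CPM, 2.63 to 15.6) against 56 UMIs in 167 FTOC cells (26.7 CPM, 20.2 to 34.7). The log2 ratio was -1.90, but it was -0.21 with log-normalised counts, under which the matching cluster held 2.58 CPM of Dll4.

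Cluster m1 held mesenchymal genes in cells with and without Dll4. Its marker score against the other mesenchymal cells was 0.34 for pericytes and -0.13 for fibroblasts, too low for either name. Of the 25 cells of m1 with a Dll4 UMI, 22 were from ORFTOC and 3 from FTOC. Pdgfra and Pdgfrb, which mark mesenchyme, were found in 24 and 23 of them, and Col1a1 in all 25. The endothelial genes Pecam1, Cdh5, Emcn and Cldn5 were at 0 in all 25, Kdr was found in 1 and Plvap in 15. The 110 cells of m1 without Dll4 held much the same genes, with Pdgfra in 92.7%, Col1a1 in 100% and Plvap in 73.6% of them. Foxn1 was found in 1 of the 25, Psmb11 in none and Epcam in 1. Dll4 stood at 21.2 CPM in the 104 ORFTOC cells of m1 (14.8 to 29.3), and 3 UMIs gave 6.19 CPM in the 31 FTOC cells (1.28 to 18.1). The other mesenchymal cluster, m2, led by Spp1 and Col8a1, held 2 Dll4 UMIs in 132 cells.

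Over the 43 profiles the genes most like Dll4 among 8682 were Gm14207 (r = 0.94), Cdh4 (0.88) and Synm (0.86). Gm14207 is a non-coding gene on the opposite strand (chr2:119321199-119326197) that shares 414 bases with the start of Dll4. The library reads the 5′ end of transcripts, and how reads in the shared bases were split between both genes is not given in the sources used here, so this likeness is uncertain.

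Jag1 (chr2:137081451-137116520), a Jagged ligand for the same receptors, was highest outside cTECs. Among populations of at least 50 cells it was highest in ILC2-type cells, immune cluster i9 led by Il13 and Hs3st1, at 114 CPM (97.9 to 133) with a UMI in 109 of 251 cells. The level there was 115 CPM in 232 ORFTOC cells (97.3 to 134) and 112 CPM in 19 FTOC cells (65.3 to 179). Airway-like cells followed with 63.6 CPM (57.1 to 70.7), and the small cluster e7, 42 cells led by Foxi2 and Iapp, had 113 CPM (88.0 to 142), an interval that overlapped that of ILC2-type cells. Cluster e1, led by Krt14 and Rgs5, had 34.8 CPM (31.3 to 38.7), cTECs 25 CPM (20.8 to 29.8) and γδ T cells 29.8 CPM (20.8 to 41.5), and the interval of γδ T cells overlapped the other 2, which lay apart. Thymocytes held 6 Jag1 UMIs in 3681 cells (0.338 CPM, 0.124 to 0.735).

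Epithelial Jag1 was 39.6 CPM in ORFTOC (36.7 to 42.7) and 26.5 CPM in FTOC (23.7 to 29.5). The log2 ratio of 0.58 (0.39 to 0.78) fell just short of the limit. Airway-like cells made up 349 of 1228 epithelial cells in ORFTOC and 109 of 961 in FTOC, and within them the log2 ratio was 0.01 (-0.36 to 0.40). With hashtags assigned by a 4-fold ratio, a rule that kept 13 of the 260 FTOC cells of cluster e4, the epithelial ratio was 0.32. Within cTECs it was 26.8 CPM in ORFTOC and 12.7 CPM in FTOC, the latter from 8 UMIs, with a log2 ratio of 1.08 (0.05 to 2.32). Most like Jag1 were Rab4a (r = 0.88), Klf4 (0.86) and Rab27b (0.85).

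Notch1 (chr2:26457902-26503822), the receptor required for T lineage commitment, was highest in thymocytes of the cycling and DP classes. It stood at 189 CPM (172 to 207) in cycling cluster i10, at 136 CPM (126 to 147) in cycling cluster i7 and at 101 CPM (90.0 to 112) in DP cells, then at 46.1 CPM (34.1 to 61.0) in selected and 38.7 CPM (32.7 to 45.4) in mature SP cells. The last 2 intervals overlapped, while each of the first 3 lay clear of the others and of these. The third cycling cluster, i13, led by Hist1h2ap and Mxd3, had only 32.9 CPM (26.0 to 41.0). The cycling class was named from cell division genes alone, without markers of T cell stage. Levels and ratios given for cycling cells pool i7, i10 and i13. The DP cluster i16, of 82 cells with a median of 1174 UMIs, had the highest level of all, 314 CPM (229 to 421), from 45 UMIs.

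TECs also held Notch1. The level was 108 CPM in cluster e1 (102 to 115), 79.1 CPM in Aire mTECs (67.6 to 92), 62.0 CPM in cTECs (55.3 to 69.4) and 20.5 CPM in airway-like cells (16.9 to 24.7). The cTEC level was near that of free RNA and was 61.9 CPM with the free RNA profile subtracted. Of cTECs with Notch1, 48.3% also held Nrarp, against 25.9% of those without. After thinning to 1000 UMIs these shares were 8.33% (1.03 to 27.0) and 5.34% (3.02 to 8.65), a difference not detectable at that depth.

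Between pools Notch1 stayed within 1.5-fold in epithelial cells and thymocytes. In epithelial cells it was 63.6 CPM in ORFTOC (59.9 to 67.4) and 80.6 CPM in FTOC (75.7 to 85.7), a log2 ratio of -0.34 (-0.47 to -0.22). In thymocytes it was 94.6 CPM in ORFTOC (88.6 to 101) and 98.1 CPM in FTOC (91.3 to 105), with log2 ratios of -0.05 in all thymocytes, -0.10 in cycling, -0.03 in DP and -0.05 in mature SP cells. Past the limit it was lower in ORFTOC in 2 places. In mesenchymal cells it was 36.5 CPM in ORFTOC and 66.9 CPM in FTOC, a log2 ratio of -0.87 (-1.29 to -0.44) that became -0.42 with within-pool doublets kept. In ILC3-type cells it was 33.7 and 61.9 CPM, a log2 ratio of -0.88 (-1.45 to -0.29), where 1 of 2 members with enough UMIs was past 1.5-fold against 12.2% of all genes. The genes most like Notch1, Gtf2a2, Pbrm1 and Brd3, reached only r = 0.75.

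Notch3 (chr17:32120820-32166896), a receptor of pericytes and vascular smooth muscle that is also made by immature thymocytes, had 3 separate sites. Cluster m1 had the highest level, 121 CPM (107 to 136), with a UMI in 81 of 135 cells, and m2 had 58.4 CPM (50.6 to 67.1). Airway-like cells had 61.4 CPM (55 to 68.4) and DP cells 52.0 CPM (44.4 to 60.5), intervals that overlapped with each other and with m2. In thymocytes the level was 15.9 CPM in cycling cells (13.5 to 18.6), 22.6 CPM in selected cells (14.5 to 33.6) and 0.259 CPM in mature SP cells, where 1 UMI was found in 525 cells. NK or ILC cells held none in 371 cells, which allows a share of up to 0.809%, and cTECs had 9.35 CPM (6.85 to 12.5), below free RNA. The level in selected cells ranged from 2.42 to 23.6 CPM over the alternatives.

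The pools differed in Notch3 in opposite directions. Epithelial cells had 25.9 CPM in ORFTOC (23.6 to 28.4) and 11.2 CPM in FTOC (9.44 to 13.2), a log2 ratio of 1.21 (0.93 to 1.49). Airway-like cells, the epithelial cells with the most Notch3, were a larger share of the ORFTOC epithelium, and among them the ratio was 0.18 (-0.21 to 0.59). Cluster e1 alone had 18.9 and 8.81 CPM, with a ratio of 1.10 that was 0.51, within the limit, with log-normalised counts. Mesenchymal cells had 70.1 CPM in ORFTOC (62.7 to 78.1) and 143 CPM in FTOC (120 to 169), a log2 ratio of -1.03 (-1.32 to -0.73). In m2 the levels were 46.1 CPM in 108 ORFTOC cells and 134 CPM in 24 FTOC cells, too few for a ratio. In m1 they were 112 and 153 CPM, within 1.5-fold. Thymocytes had 13.9 CPM in ORFTOC (11.6 to 16.4) and 26.3 CPM in FTOC (22.8 to 30.1), a log2 ratio of -0.92 (-1.24 to -0.60). DP cells made up 527 of 1468 thymocytes in ORFTOC and 1277 of 2213 in FTOC, and among them Notch3 was 53.3 and 51.5 CPM, with a ratio of 0.05 (-0.45 to 0.54). With every cell given equal weight the thymocyte ratio was -0.46, within the limit. In cycling cells, where 75 UMIs stood against 78, the ratio was -0.74 (-1.22 to -0.26), and -0.46 with log-normalised counts. The genes most like Notch3 were Ankrd46, Dnajb1 and Dapk1 (r = 0.80 each).

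**Figure D3:**
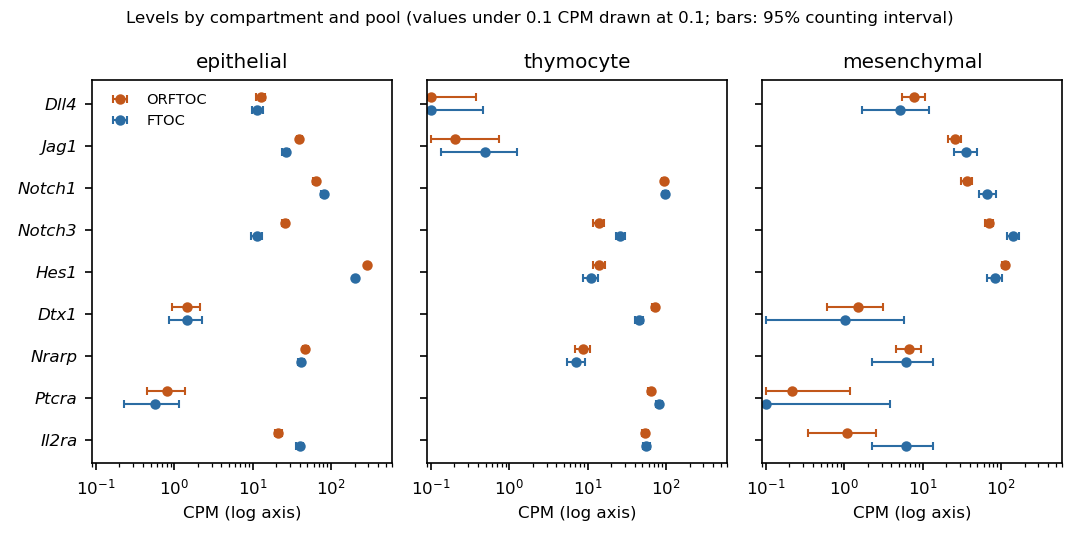
Level of each of the 9 genes in epithelial cells, thymocytes and mesenchymal cells, in CPM on a log axis, with 1 point per pool and bars for the 95% counting interval; values under 0.1 CPM are drawn at 0.1. Notch3 lies higher in ORFTOC among epithelial cells (25.9 against 11.2 CPM) and lower among mesenchymal cells (70.1 against 143 CPM), while Dll4 has no UMI in thymocytes.

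Hes1 (chr16:30065357-30067796), a transcriptional repressor induced by Notch in many tissues, was mainly epithelial here. It was highest in airway-like cells, at 461 CPM (443 to 479) with a UMI in 381 of 458 cells, and next in ILC2-type cells, at 416 CPM (384 to 450). Cluster e5 with 256 CPM (238 to 275) and cTECs with 248 CPM (235 to 263) overlapped, cluster e1 had 219 CPM (210 to 229), and Aire mTECs had 69.3 CPM (58.6 to 81.4). Among thymocytes it was 19.2 CPM in cycling cells (16.6 to 22.2), 3.41 CPM in DP cells (1.70 to 6.09) and 4.93 CPM in mature SP cells (2.97 to 7.70), all below the level of 47.1 CPM in free RNA. In DP cells 11 Hes1 UMIs were found in 1804 cells.

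Jag1 and Hes1 had the same 2 named populations on top, and no link between both genes was detectable from cell to cell. In ILC2-type cells Hes1 was found in 45.9% of cells with Jag1 (36.3 to 55.7) and 44.4% of those without (36.0 to 52.9). In airway-like cells the shares were 86.8% (81.3 to 91.1) and 80.3% (74.9 to 85.02), with medians of 12133 and 10505 UMIs. After thinning to 1000 UMIs they were 48.4% (30.2 to 66.9, 31 cells) and 36.1% (31.5 to 40.8, 427 cells). The pool values of Hes1 were close in airway-like cells, 461 CPM in ORFTOC and 459 in FTOC, and in ILC2-type cells, 416 and 415 CPM. Over all epithelial cells it was 289 CPM in ORFTOC (281 to 297) and 202 CPM in FTOC (195 to 210), a log2 ratio of 0.51 (0.44 to 0.58). In cTECs it was 260 and 172 CPM, a log2 ratio of 0.60 (0.31 to 0.89) that dropped under 1.5-fold in 3 of 7 alternatives. Hes1 was most like Zfp503, Pard3 (r = 0.90 each) and Meis1 (0.89).

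Nrarp (chr2:25180758-25183339), which is induced by Notch and damps it, was highest in TECs. It stood at 70.2 CPM in Aire mTECs (59.4 to 82.4), 63.4 CPM in cluster e1 (58.6 to 68.5) and 57.6 CPM in cTECs (51 to 64.7), 3 intervals that overlapped. Airway-like cells, the cells richest in Hes1, had 19.4 CPM (15.9 to 23.5). Thymocytes had 7.99 CPM (6.73 to 9.42), below free RNA, with the exception of cycling cluster i13 at 22.9 CPM (17.2 to 29.8), which had little Notch1. In cTECs Nrarp was 60.6 CPM in ORFTOC (53.5 to 68.5) and 36.6 CPM in FTOC (23.2 to 54.9, 23 UMIs), a log2 ratio of 0.73 (0.11 to 1.41). Its pattern was most like those of Nfe2l3 (r = 0.83) and Tekt5 (0.81).

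Dtx1 (chr5:120680203-120711867), a ubiquitin ligase of the Deltex family that acts on Notch signalling, stood above its level in free RNA in each named thymocyte class. It was 56.0 CPM in cycling cells (51.4 to 60.9), 57.6 CPM in DP cells (49.6 to 66.5), 48.9 CPM in selected cells (36.6 to 64.2) and 74.5 CPM in mature SP cells (66.1 to 83.6). The first 3 could not be told apart by their intervals. Within the DP class cluster i5, led by Ly6d, had 103 CPM (85.8 to 123) and cluster i1, led by Rag1, 30.6 CPM (23.2 to 39.6). ILC2-type cells had 82.3 CPM (68.4 to 98.2), while epithelial cells had 1.45 CPM (1.05 to 1.95) and mesenchymal cells 1.42 CPM (0.614 to 2.80).

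Dtx1 was higher in the ORFTOC pool in several lymphoid populations. In mature SP cells it was 91.7 CPM in 318 ORFTOC cells (80.1 to 104) and 43.9 CPM in 207 FTOC cells (33.6 to 56.4), a log2 ratio of 1.06 (0.65 to 1.49). In cycling cells it was 65.2 CPM (58.9 to 72.1) and 41.2 CPM (34.9 to 48.3), a ratio of 0.66 (0.39 to 0.94). In γδ T cells 75.0 CPM stood against 38.1 CPM (ratio 0.98), in NK or ILC cells 19.2 against 9.17 CPM (1.07), and in cluster i6, led by Ly6c2 and Jchain, 63.6 against 28.9 CPM (1.14). These 5 ratios stayed past 1.5-fold in each of their 9 alternatives. In DP cells the levels were 73.2 CPM (57.0 to 92.4) and 51 CPM (42.2 to 61.2), a ratio of 0.52 (0.07 to 0.96) within the limit, and in selected cells 44.5 CPM and 51.4 CPM did not differ detectably. Over all thymocytes the ratio was 0.67 (0.48 to 0.85), where the median of all genes was -0.16. Dtx1 was most like Bzw2, Rasgrp2 (r = 0.89 each) and Kcnn4 (0.88).

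Ptcra (chr17:46755663-46763712) encodes the pre-TCR α chain, which pairs with a new β chain before the α locus is rearranged. It stood at 145 CPM in cycling cluster i10 (130 to 162), 119 CPM in DP cells (107 to 131) and 102 CPM in cycling cluster i7 (92.9 to 111), of which the last 2 overlapped. It was 44.2 CPM in selected cells (32.5 to 58.8), 1.30 CPM in mature SP cells (0.421 to 3.03) and 0.416 CPM in cycling cluster i13, where 1 UMI was found in 164 cells. Epithelial cells held 0.706 CPM (0.437 to 1.08), and ILC2-type cells held none in 251 cells, which allows a share of up to 1.20%. The value in selected cells ranged from 4.83 to 54.7 CPM over the alternatives.

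The lower Ptcra of later stages can be set beside the receptor chains of the TCR library, of whose 4649 barcodes 3911 were among the cells. A productive β and α chain together were found in 10.04% of cells in cluster i10 (6.54 to 14.6), 14.8% in i7 (11.6 to 18.5), 54.2% in selected cells (49.8 to 58.6), 64.6% in i13 (56.8 to 71.9) and 81.9% in mature SP cells (78.3 to 85.1). Among all cycling cells 10.4% of those with Ptcra (7.22 to 14.3) and 30.6% of those without (26.7 to 34.7) held both chains. Inside single clusters the gap was narrower. Within i7 the shares were 13.3% (8.90 to 18.9) and 16.0% (11.7 to 21.3), and within i10 5.36% (1.99 to 11.3) and 14.2% (8.62 to 21.5). In DP cells they were 31.0% (25.8 to 36.6) with Ptcra and 32.4% (30.02 to 34.8) without.

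Other members went with Ptcra inside the DP class. With cells thinned to 1000 UMIs, Notch3 was found in 8.76% of DP cells with Ptcra (5.19 to 13.7) and 3.62% of those without (2.74 to 4.68), and Dtx1 in 8.25% (4.79 to 13.0) and 3.16% (2.34 to 4.17). Dtx1 also went with Notch1, in 9.84% of DP cells with it (5.19 to 16.6) and 3.27% without (2.45 to 4.26). Il2ra did not, in 10.3% of DP cells with Ptcra (6.41 to 15.5) and 10.7% without (9.21 to 12.4). Such shares also move with the balance of clusters i1 and i5 in the class, whose part was not tested.

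Between pools Ptcra was alike in DP cells, 123 CPM in ORFTOC (102 to 148) and 117 CPM in FTOC (103 to 132). In cluster i7 it was 88.5 CPM (78.3 to 99.8) and 123 CPM (108 to 140). Over all thymocytes it was 63.7 and 81.3 CPM, a log2 ratio of -0.35 (-0.51 to -0.19) within 1.5-fold. The genes most like Ptcra were Dgkeos (r = 0.98), Endou (0.97) and Dntt (0.97), the last the terminal transferase of receptor rearrangement.

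**Figure D4:**
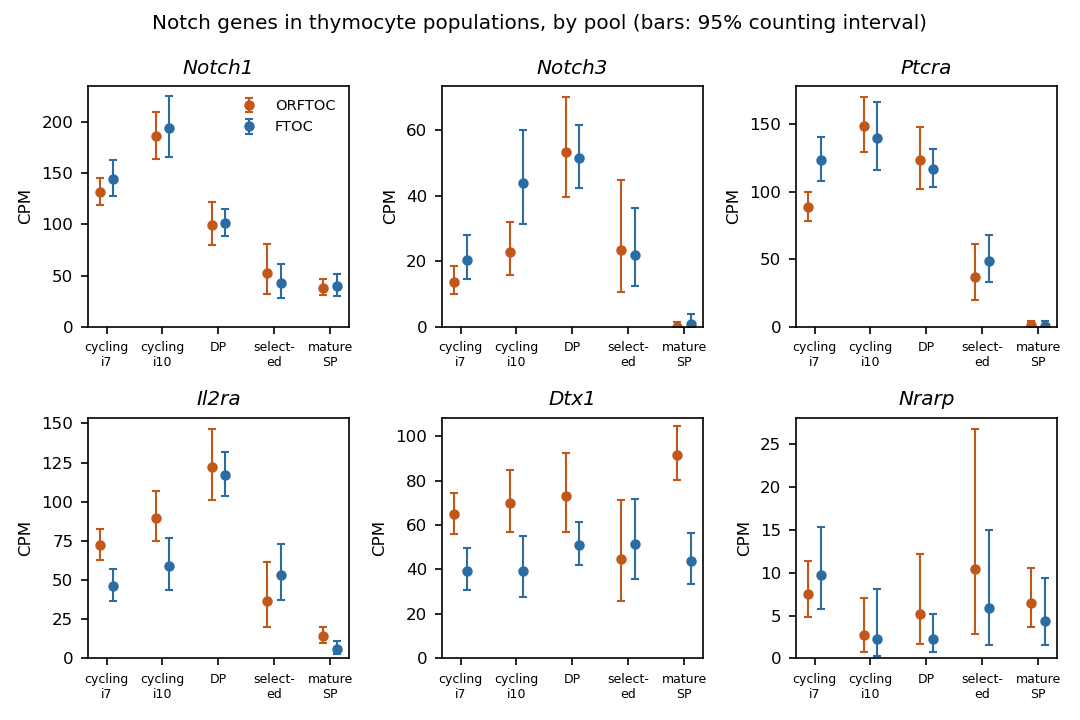
Level of 6 of the genes in CPM along thymocyte populations (cycling clusters i7 and i10, DP, selected and mature SP), with 1 point per pool and bars for the 95% counting interval. Notch1, Notch3 and Ptcra are lower in mature SP cells than in DP cells, whereas Dtx1 in mature SP cells is 91.7 CPM in ORFTOC and 43.9 CPM in FTOC.

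Il2ra (chr2:11642792-11693194), the α chain of the interleukin 2 receptor, known as CD25, marks early double-negative thymocytes, regulatory T cells and innate lymphoid cells. It was 177 CPM in ILC3-type cells (162 to 193), 127 CPM in ILC2-type cells (110 to 147) and 119 CPM in DP cells (107 to 131), the last 2 not told apart. Cycling cells had 52.1 CPM (47.6 to 56.8), selected cells 47.1 CPM (34.9 to 62.0), mature SP cells 11.2 CPM (8.07 to 15) and cycling cluster i13 6.24 CPM (3.49 to 10.3), the last 2 below free RNA. DP cells with Il2ra resembled the other DP cells. They held a productive β chain in 83.3% of cells (78.6 to 87.4) against 86.3% (84.5 to 88.0), Rag1 in 90.0 against 88.8% and Cd4 in 66.0 against 61.5%.

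In TECs Il2ra was higher in the FTOC pool. In cTECs 59 UMIs in 38 FTOC cells gave 93.8 CPM (71.4 to 121), and 89 UMIs in 267 ORFTOC cells gave 20.8 CPM (16.7 to 25.5), a log2 ratio of -2.18 (-2.67 to -1.68). Among the members' ratios with enough UMIs this was the widest. Of the FTOC cTECs 13 held an Il2ra UMI, 3 of which also held Cd4 and 2 Rag1, against 1 each of the other 25. The ratio was -2.14 with cells left out that held a UMI of Ptprc or Pdgfra. That rule did not use Cd4 or Rag1. Cluster e1 had 36.5 CPM in ORFTOC (31.9 to 41.7) and 71.7 CPM in FTOC (63.8 to 80.4), a ratio of -0.97, and Aire mTECs 56.5 and 88.6 CPM, a ratio of -0.65 that came within the limit in 2 of 8 alternatives (-0.39 with equal weight for every cell). Airway-like cells had 1.28 CPM (0.516 to 2.64), far below free RNA. Over all epithelial cells the ratio was -0.90 (-1.10 to -0.70), but it was -0.47 with the members kept in the clustering and -0.56 with within-pool doublets kept.

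Among lymphoid cells the direction varied. Over all thymocytes Il2ra was 53.8 CPM in ORFTOC and 56.4 CPM in FTOC, a log2 ratio of -0.07 (-0.25 to 0.12), and in selected cells 36.7 and 52.9 CPM from 14 and 36 UMIs (-0.53, -1.53 to 0.40). Cycling thymocytes had 60.3 CPM of Il2ra in ORFTOC (54.2 to 66.9) and 38.7 CPM in FTOC (32.6 to 45.6), a log2 ratio of 0.64 (0.36 to 0.93) that fell within 1.5-fold in 7 of 9 alternatives. In γδ T cells it was 106 CPM (76.1 to 144) and 57.2 CPM (41.7 to 76.5), a ratio of 0.89 (0.24 to 1.53). DP cells had 122 and 117 CPM (0.06, -0.26 to 0.38), and ILC3-type cells 174 and 184 CPM. The genes most like Il2ra were Rgcc (r = 0.77), Nebl (0.76) and Zc3h13 (0.75).

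The counts of members past 1.5-fold can be set against all genes. In cTECs 4 of the 6 members with enough UMIs were past it (Jag1, Hes1, Nrarp and Il2ra), where 21.3% of all genes tested were. In cycling thymocytes 3 of 7 were past it against 7.52%, in γδ T cells 2 of 2 against 14.0%, and in mature SP cells 1 of 2 against 8.37%. In cluster e1 it was 2 of 6 against 10.3%, in cluster e5 2 of 4 against 15.6% and in Aire mTECs 1 of 4 against 17.8%. NK or ILC cells had 1 of 4 against 6.99% and cluster i6 had 1 of 3 against 7.99%. The compartments had 2 of 7 in epithelial cells (18.9% of all genes), 2 of 4 in mesenchymal cells (17.0%) and 2 of 7 in thymocytes (15.9%). All immune cells together had 4 of 8 (16.3%). In them Jag1 was 11.4 CPM in ORFTOC and 3.98 CPM in FTOC (log2 ratio 1.52, 1.11 to 1.94) and Hes1 39.0 and 14.5 CPM (1.43, 1.21 to 1.65). ILC2-type cells, which had the most of both genes among immune cells, were 232 of 2808 immune cells in ORFTOC and 19 of 3128 in FTOC. Notch3 was 7.33 and 15.4 CPM (-1.07) and Dtx1 48.7 and 31.7 CPM (0.62). No member was past it in airway-like cells (0 of 5, against 15.9% of all genes), in DP cells (0 of 5, 5.86%) or in selected cells (0 of 2, 9.57%). With 2 to 8 members in each count, these shares are coarse. Members without enough UMIs for a ratio in a compartment were Dtx1 and Ptcra in epithelial cells, Dll4 and Jag1 in thymocytes, and Dll4, Dtx1, Nrarp, Ptcra and Il2ra in mesenchymal cells.

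**Figure D5:**
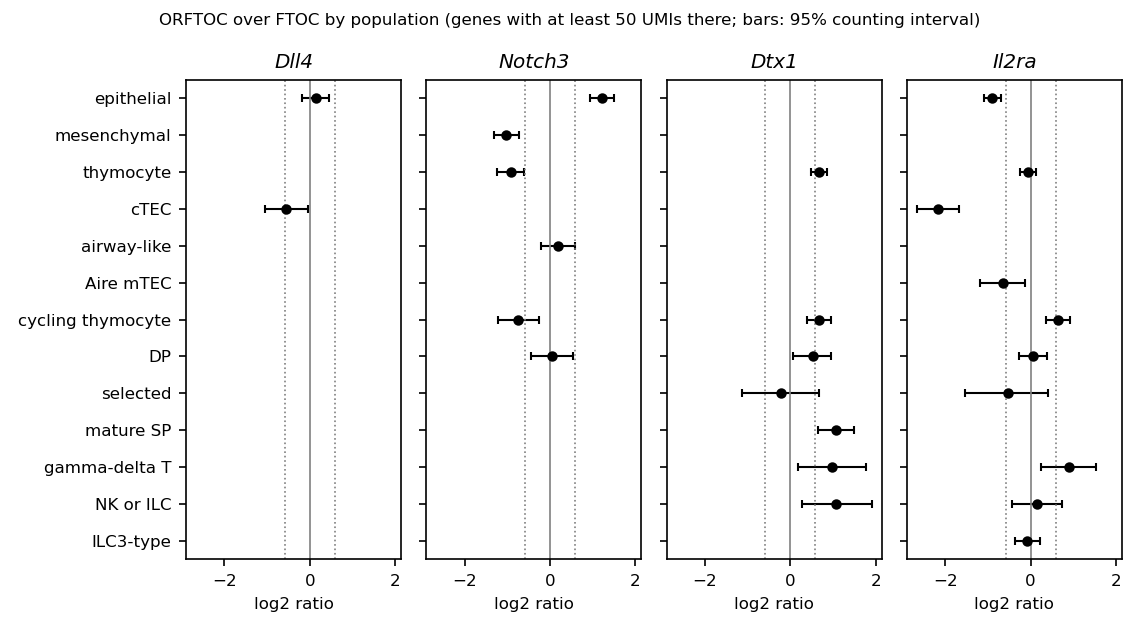
Log2 ratio of ORFTOC over FTOC of Dll4, Notch3, Dtx1 and Il2ra in each population with at least 50 UMIs of the gene, with bars for the 95% counting interval and lines at 1.5-fold in either direction. Dtx1 lies to the ORFTOC side in mature SP cells (1.06), and Il2ra lies furthest to the FTOC side, in cTECs (-2.18).

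The 44 other pathway genes held further ligands with their highest level outside cTECs. Of them 28 reached 50 CPM in a population of at least 50 cells. Dll1, a Delta ligand, was highest in ILC3-type cells at 190 CPM (174 to 207). Jag2, a second Jagged ligand, and Dll3, a Delta family member that does not activate Notch, were highest in cluster e5 at 136 CPM (123 to 150) and 61.3 CPM (52.7 to 71.0). The same cluster had 2899 CPM of Hes6 (2838 to 2962), a Hes family protein that opposes Hes1. In ILC2-type cells, where Jag1 and Hes1 were high, Hey1, another Notch-induced repressor, was at 226 CPM (202 to 251), Gata3 at 515 CPM (479 to 552) and Notch2 at 64.9 CPM (52.6 to 79.2), the highest levels of the 3 genes. Lfng, the glycosyltransferase that tunes Notch for Delta ligands, was highest in mature SP cells at 141 CPM (129 to 153). Tcf7, an early Notch target of the T lineage, was highest in DP cluster i5 at 1722 CPM (1649 to 1798), and Myc in cycling cluster i10 at 180 CPM (163 to 198). Hes5 did not exceed 3.76 CPM and Notch4 4.52 CPM, each from at most 4 UMIs.

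Between pools the list moved about as often as all genes did in epithelial cells and thymocytes. In epithelial cells 9 of 42 tested were past 1.5-fold, 5 higher and 4 lower in ORFTOC, against 18.9% of all genes in either direction. Dtx4, a Deltex relative of Dtx1, had 19.99 CPM in ORFTOC and 6.34 in FTOC (1.66, 1.30 to 2.03), Gata3 had 9.73 and 3.93 CPM (1.31), Notch2 48.8 and 29.1 CPM (0.75), and the ligand-like gene Dlk2 3.36 and 7.70 CPM (-1.20). In cTECs Heyl, a Hey family target, had 98 UMIs in ORFTOC and 3 in FTOC (2.26, 0.67 to 4.56). In mesenchymal cells 7 of 31 were past 1.5-fold, all lower in ORFTOC. Of all genes there, 10.3% were lower and 6.75% higher. The 7 included Dlk1 with 17.0 and 64.9 CPM (-1.93, -2.43 to -1.43) and Rbpj with 37.8 and 62.8 CPM (-0.73). In thymocytes 5 of 31 were past it, all lower in ORFTOC. Of all genes there, 13.8% were lower and 2.07% higher. The 5 included Mib2, which makes ligands active, with 5.13 and 11.1 CPM (-1.11). Bcl11b, which locks in the T lineage, had 219 and 340 CPM (-0.63, -0.71 to -0.55). Cycling cells held 5933200 of the 9737510 thymocyte UMIs in ORFTOC and 3691793 of 8034699 in FTOC. The part of this make-up in the 5 ratios was not tested. Within cycling thymocytes 2 of 26 were past 1.5-fold, against 7.52% of all genes. Within DP cells 2 of 24 were past it, against 5.86% of all genes. Of these 2, Fbxw7, a ligase that degrades the Notch intracellular domain, had an interval clear of 0 (-0.87, -1.73 to -0.10).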

How the data were processed

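Gene expression, hashtag and TCR libraries came from 1 droplet lane read at the 5′ end. The submitters' processing notes name Cell Ranger 6.1.2, the mm10 build and Seurat 4.2.0, while the header of the matrix names Cell Ranger 4. The authors deposited an unfiltered matrix of UMI counts per gene and barcode (705161 barcodes, 103984163 UMIs) and counts of UMIs per TCR contig. Cells needed 600 genes and passed the study's mitochondrial limits (10245 barcodes). HTODemux called 8983 single, 590 doublet and 672 negative, and 591 doublets within pools were removed by a neighbour rule. Clusters came from SCTransform values (Seurat 5.3.0, sctransform 0.4.2, R 4.3.3) with 18 principal components and resolutions of 0.4 (immune cells 1), without the 9 members and 44 pathway genes. UMI counts were summed per population and pool with Python 3.11.15 and scipy 1.17.1. A count of 0 was given the limit that 3 counts allow. Genes most like a member were the 3 with the highest Pearson correlation over cluster profiles with a pseudocount of 10 CPM, of which 1 is not reported here. Pathway genes were named where they reached 50 CPM in a population of at least 50 cells and either were past 1.5-fold or led their role group, and further genes were named after their values had been seen. The members and lists were chosen with earlier results of these data known. Scripts were tested on simulated data. Alternatives are given in the closing section.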

Additional observations from a re-analysis of the deposited data

Results flagged for a closer look

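Of the 9 genes 2 moved in opposite directions between the pools in different populations, with counting intervals that left out equality on both sides. Whether the differences between populations exceed the spread between cultures was not tested, since each pool was 1 sample. Notch3 was higher in ORFTOC among epithelial cells, with a log2 ratio of ORFTOC over FTOC of 1.21, and lower among mesenchymal cells (-1.03), thymocytes (-0.92) and cycling thymocytes (-0.74). Il2ra was lower in ORFTOC among epithelial cells (-0.90), Aire mTECs (-0.65) and cTECs (-2.18), and higher among cycling thymocytes (0.64), where it stayed past 1.5-fold in 2 of 9 alternatives, and γδ T cells (0.89). Over all thymocytes it was -0.07 and in selected cells -0.53, with intervals that held equality.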

How the results depend on the processing

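In all, 81 ratios between pools were recomputed under 6 to 9 alternatives, giving 686 values. Of these, 48 values of 23 ratios had the other sign, none of them a ratio past 1.5-fold, and 627 lay within the counting interval of the reported ratio. Of 28 ratios past 1.5-fold, 15 stayed past it in each alternative run. Ratios on the log2 scale that moved further in epithelial cells, mesenchymal cells and all thymocytes were as follows. Ratios of single classes and clusters that moved further are not in this list. With hashtags assigned by a 4-fold ratio, epithelial Jag1 was 0.32, Notch1 -0.19, Hes1 0.42, Nrarp 0.0029 and Il2ra -1.33, and mesenchymal Notch3 was -1.46 and Hes1 -0.032 (reported 0.42). With within-pool doublets kept, epithelial Notch3 was 0.87 and Il2ra -0.56, mesenchymal Notch1 -0.42, and thymocyte Ptcra -0.52 and Il2ra -0.45. With the members kept in the clustering, Notch3 in epithelial cells was 0.88 and Il2ra -0.47, and Il2ra in thymocytes -0.42. With equal weight for every cell, epithelial Notch1 was -0.49 and Il2ra -0.66, and thymocyte Notch3 -0.46 and Il2ra -0.31. With epithelial cells that held a UMI of Ptprc or Pdgfra left out, epithelial Nrarp was 0.37. With log-normalised counts, thymocyte Notch1 was 0.094 (reported -0.05) and Ptcra -0.19. With at least 1000 genes a cell, thymocyte Ptcra was -0.67. The cause was not tested. The hashtag rule by ratio kept 7493 of the 8392 cells, of which 1 changed pool. It kept 13 of 260 FTOC cells of cluster e4, 124 of 167 of e5, 19 of 31 of m1 and 9 of 24 of m2. The cell that changed pool was among those of m2. cTECs had 28 FTOC cells under that rule and 28 with log-normalised counts, too few for a ratio. No paired analysis was possible because each pool was 1 sample. Depth limits what can be said of low genes in DP cells, whose median was 1607 UMIs, and of the 38 FTOC cTECs.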
